A study of Mus musculus with 15 samples.

Results

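The NF-kB subunits and their inhibitors are described here as 10 genes chosen by symbol: the subunit genes Rela, Rel, Relb, Nfkb1 and Nfkb2, the cytoplasmic inhibitors Nfkbia, Nfkbib and Nfkbie, the nuclear inhibitor-like factor Nfkbiz and the deubiquitinase gene Tnfaip3. They were 10 of the 51763 identifiers in the count table, and all 10 passed the filter on low counts, which kept 16919 genes for testing. RNA was sequenced from macrophages grown for 10 days by the labels, or 8 to 9 days by the study's methods, from the bone marrow of female wild-type C57BL/6NTac mice of 8 to 10 weeks, and then stimulated for 24 h. Each of 5 conditions had 3 libraries: 1X PBS, fully reduced HMGB1 (frHMGB1) at 5 µg/mL, disulfide HMGB1 (dsHMGB1) at 5 µg/mL, LPS-EK at 1 µg/mL (LPS), and LPS-EK with 20 ng/mL IFNγ (LPS/IFNγ). The LPS dose of the last condition is 1 µg/mL in the sample's treatment field but 100 ng/mL in the protocol text and in the study's methods, so LPS/IFNγ may differ from LPS in dose as well as in IFNγ. Macrophages of 5 mice had been mixed, by the study's methods, when they were seeded, so the 3 libraries of a condition are technical replicates, and every p-value below measures only the spread between cultures and libraries, not between animals.

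NF-kB is a family of dimeric transcription factors that wait in the cytoplasm of resting cells, bound by inhibitor proteins, and enter the nucleus once a kinase complex has marked the inhibitor for destruction. In macrophages the pathway is switched on by receptors for bacterial products, cytokines and some proteins released from damaged cells, and it drives genes for cytokines, chemokines and survival. Several of its own subunits and inhibitors are among its target genes, so that the pathway holds both forward and negative feedback loops.

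Before any result, PBS replicate 3 stood apart from the other libraries. Its Pearson correlation (log2 CPM) was 0.938 with PBS replicate 1 and 0.933 with PBS replicate 2, whereas all other pairs within a condition reached 0.987 to 0.993. Fth1, the ferritin heavy chain gene, took 6.77% of its counts, against 2.34% and 2.18% in PBS replicates 1 and 2, and mitochondrial genes took 0.346%, against 0.840% and 0.890%. Its difference from those libraries followed transcript length: across 10102 genes, which are not independent replicates, Spearman's rho between summed exon length and the library's deviation from its condition was -0.587. The median log2 difference fell along the length classes from 1.79 for genes under 1000 bases to -0.93 for genes of 8000 bases or more. Over the 10 members rho was -0.806, with exceptions to the order. Nfkbib (exon length 2169 bases) lay 1.10 above the mean of the other PBS libraries on the log2 scale, Nfkbia (1610 bases) 0.60 and Relb (3885 bases) 0.60 above it, while Rel (7466 bases) lay at -1.24, Tnfaip3 (7226 bases) at -1.12, Nfkbiz (5018 bases) at -1.11 and Nfkb1 (12061 bases) at -1.09. Nfkbie (0.25), Nfkb2 (0.07) and Rela (-0.14) differed least. dsHMGB1 replicates 1 (rho -0.616) and 2 (0.580) followed length in opposite directions, and deviations from a condition's mean cannot say which of them departed. Their spread over the members was smaller (SD 0.228 and 0.191, against 0.869 in PBS replicate 3). The source of these patterns was not tested. Calls of the members that changed without PBS replicate 3 are given with and without it, as are those of other genes where stated.

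**Figure D1:**
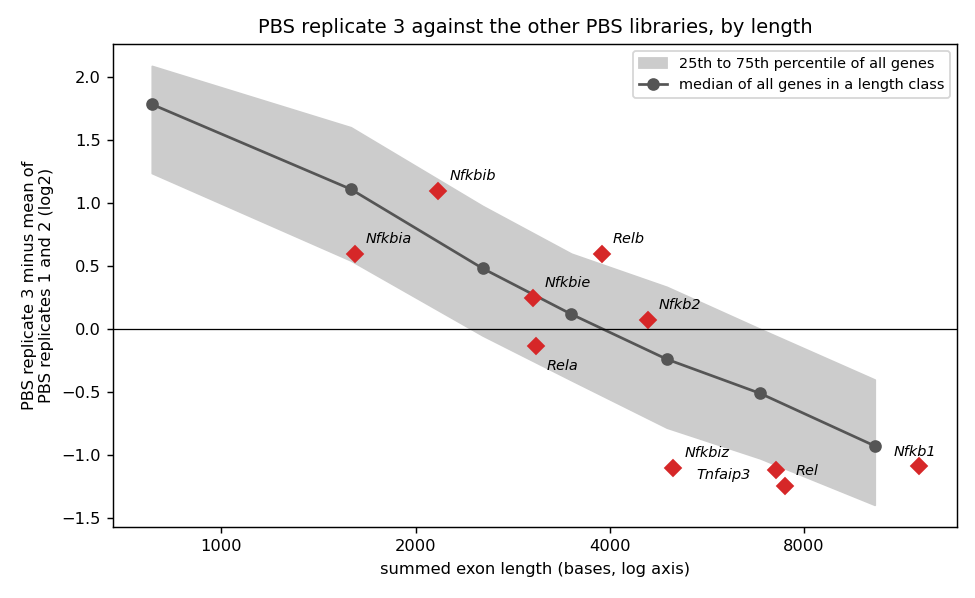
PBS replicate 3 against PBS replicates 1 and 2 by summed exon length. The line and the band give the median and the quartiles of all genes in each length class, and the diamonds are the members.

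Since several members are known targets of NF-kB, the sequences before their transcription start sites are shown first, with the matches to the NF-kB (κB) decamer consensus in capitals. RefSeq promoters (GRCm38.p6, 250 bases before to 50 after a start site) were at hand for 7 of the 10 members, in 10 windows, and were searched on both strands, with overlapping matches merged. The consensus was found in 5 of the 7 members and 7 of the 10 windows, and in 2779 of all 32851 promoters of the same length (8.46%). A pair of these windows, both of Nfkb2, overlap and share 1 match, which is counted in each. A match describes letters only and says nothing of binding. The Nfkb2 window shown (chr19:46304487-46304786, + strand) held a pair of matches, from 39 to 29 and from 11 to 2 bases before the start site.
Nfkb2: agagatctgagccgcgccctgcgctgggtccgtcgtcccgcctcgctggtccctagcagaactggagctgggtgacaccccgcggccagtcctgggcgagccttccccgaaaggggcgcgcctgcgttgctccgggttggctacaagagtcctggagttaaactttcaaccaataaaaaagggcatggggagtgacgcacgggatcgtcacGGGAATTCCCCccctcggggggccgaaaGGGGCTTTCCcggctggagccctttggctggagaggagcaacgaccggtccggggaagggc
Tnfaip3 (chr10:19015361-19015660, - strand) held a pair as well, from 125 to 116 and from 12 to 3 bases before its start site.
Tnfaip3: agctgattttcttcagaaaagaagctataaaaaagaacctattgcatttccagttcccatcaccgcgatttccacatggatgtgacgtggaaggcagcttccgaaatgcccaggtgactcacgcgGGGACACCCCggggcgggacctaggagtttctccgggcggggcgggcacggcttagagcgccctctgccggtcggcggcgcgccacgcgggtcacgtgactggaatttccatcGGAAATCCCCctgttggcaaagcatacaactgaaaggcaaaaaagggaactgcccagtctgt
A single match stood in the windows of Nfkbia (chr12:55492598-55492897, - strand, 29 to 20 bases before the start site), Nfkbie (chr17:45555450-45555749, + strand, 106 to 97 bases) and Rel (chr11:23770920-23771219, - strand, 92 to 82 bases).
Nfkbia: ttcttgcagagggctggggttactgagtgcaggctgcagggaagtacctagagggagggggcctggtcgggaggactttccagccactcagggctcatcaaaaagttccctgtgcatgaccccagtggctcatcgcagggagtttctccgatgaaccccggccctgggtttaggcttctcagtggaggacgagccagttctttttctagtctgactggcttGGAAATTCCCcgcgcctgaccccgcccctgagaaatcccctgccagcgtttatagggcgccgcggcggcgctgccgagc
Nfkbie: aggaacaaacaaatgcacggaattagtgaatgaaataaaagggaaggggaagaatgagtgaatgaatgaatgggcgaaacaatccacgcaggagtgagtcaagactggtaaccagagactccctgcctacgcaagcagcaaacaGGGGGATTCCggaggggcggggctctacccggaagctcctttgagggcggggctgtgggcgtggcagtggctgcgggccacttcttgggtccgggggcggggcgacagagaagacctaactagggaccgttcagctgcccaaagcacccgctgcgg
Rel: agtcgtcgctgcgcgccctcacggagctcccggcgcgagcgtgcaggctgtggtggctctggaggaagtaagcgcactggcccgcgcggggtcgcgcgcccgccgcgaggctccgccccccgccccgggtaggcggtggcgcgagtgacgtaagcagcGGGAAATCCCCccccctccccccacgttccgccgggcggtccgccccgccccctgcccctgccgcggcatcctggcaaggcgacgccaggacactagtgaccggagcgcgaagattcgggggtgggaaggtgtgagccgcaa
These letters did not occur in the windows of Rela and Nfkbib or in the other window of Tnfaip3. No window was at hand for Nfkb1, Relb and Nfkbiz. Of the windows without a match, that of Rela (chr19:5637291-5637590, + strand) is shown as an example.
Rela: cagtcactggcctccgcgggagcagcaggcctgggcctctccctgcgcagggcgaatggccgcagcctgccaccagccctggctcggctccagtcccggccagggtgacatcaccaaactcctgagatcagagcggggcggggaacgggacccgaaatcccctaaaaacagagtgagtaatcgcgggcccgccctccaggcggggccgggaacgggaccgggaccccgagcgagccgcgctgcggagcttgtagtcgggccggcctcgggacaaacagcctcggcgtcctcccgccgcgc

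Levels are given as DESeq2 normalized counts (counts divided by a library's size factor), and changes as DESeq2 log2 fold changes with adjusted p from edgeR's quasi-likelihood test over all 16919 genes, where a gene is called at adjusted p under 0.05. In bulk RNA, fewer cells of a type and less RNA per cell cannot be told apart. All 10 members were called higher than PBS after dsHMGB1, where 23.3% of all genes were called higher and 24.2% lower. All 10 were also higher after LPS (26.7% of genes higher, 36.2% lower) and after LPS/IFNγ (29.0% higher, 31.2% lower). frHMGB1 raised 5 of the 10 and lowered 0, against 1.31% of all genes higher and 5.69% lower. The median log2 fold change of the members was 0.51 after frHMGB1, 3.65 after dsHMGB1, 4.52 after LPS and 4.41 after LPS/IFNγ, beside medians of -0.01, -0.10, -0.21 and -0.13 over all genes. A log2 fold change above 2 was reached by 0 members after frHMGB1 (0.609% of all genes), 9 after dsHMGB1 (8.43%), 10 after LPS (10.9%) and 10 after LPS/IFNγ (12.1%). The 4 comparisons share the PBS libraries, so they are not independent of each other.

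Without PBS replicate 3, with 17339 genes tested, the members called higher numbered 10 after dsHMGB1 (29.8% of all genes higher, 29.0% lower), 10 after LPS (32.9% and 38.3%) and 10 after LPS/IFNγ (33.3% and 34.4%). After frHMGB1 they numbered 8 (8.41% and 9.09%). Their medians then were 0.54, 3.51, 4.41 and 4.32 after frHMGB1, dsHMGB1, LPS and LPS/IFNγ.

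**Figure D2:**
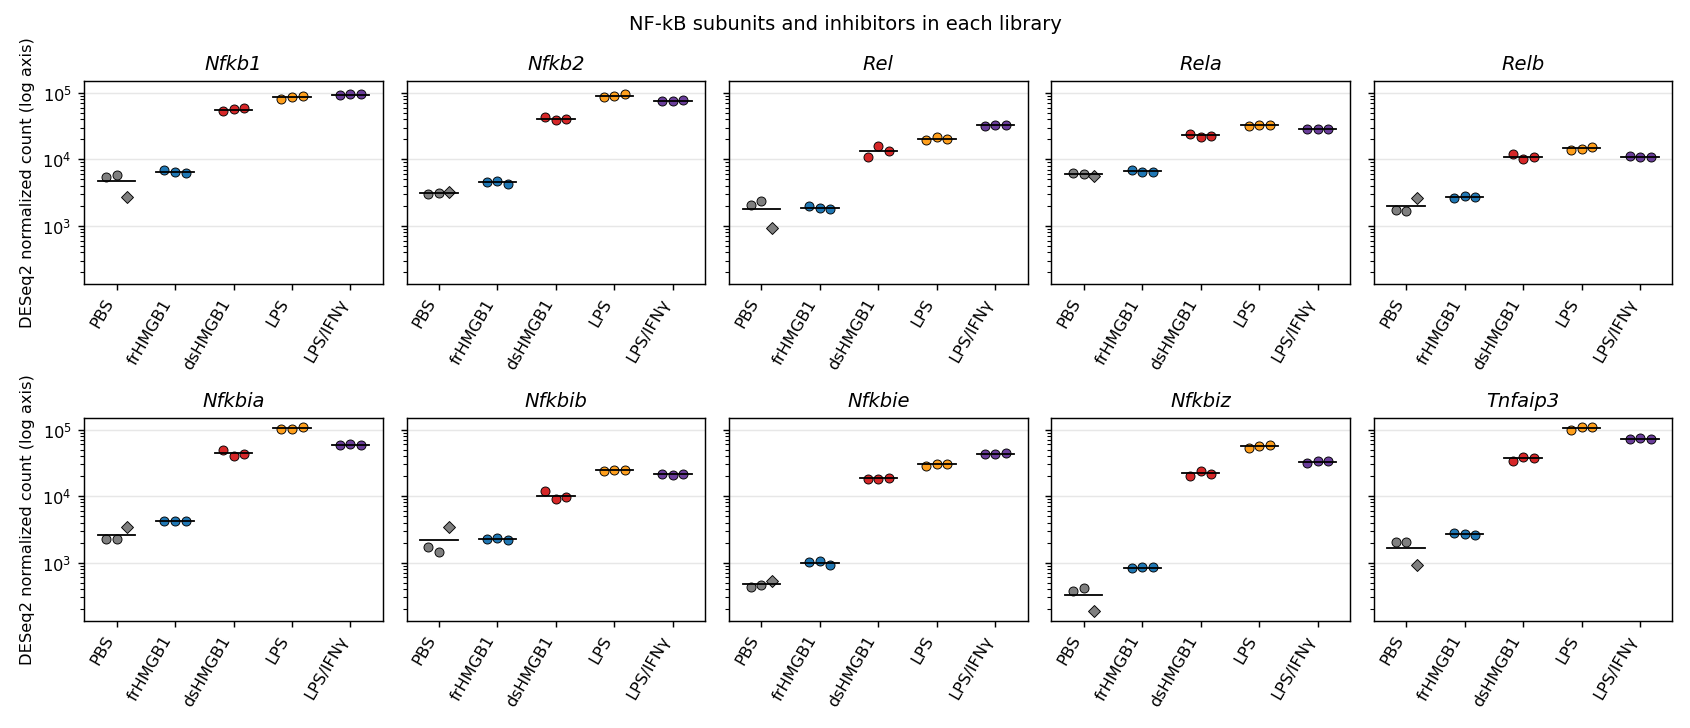
Normalized counts of the 10 members in each library, on a log axis. Bars are means of a condition and the grey diamond is PBS replicate 3.

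**Figure D3:**
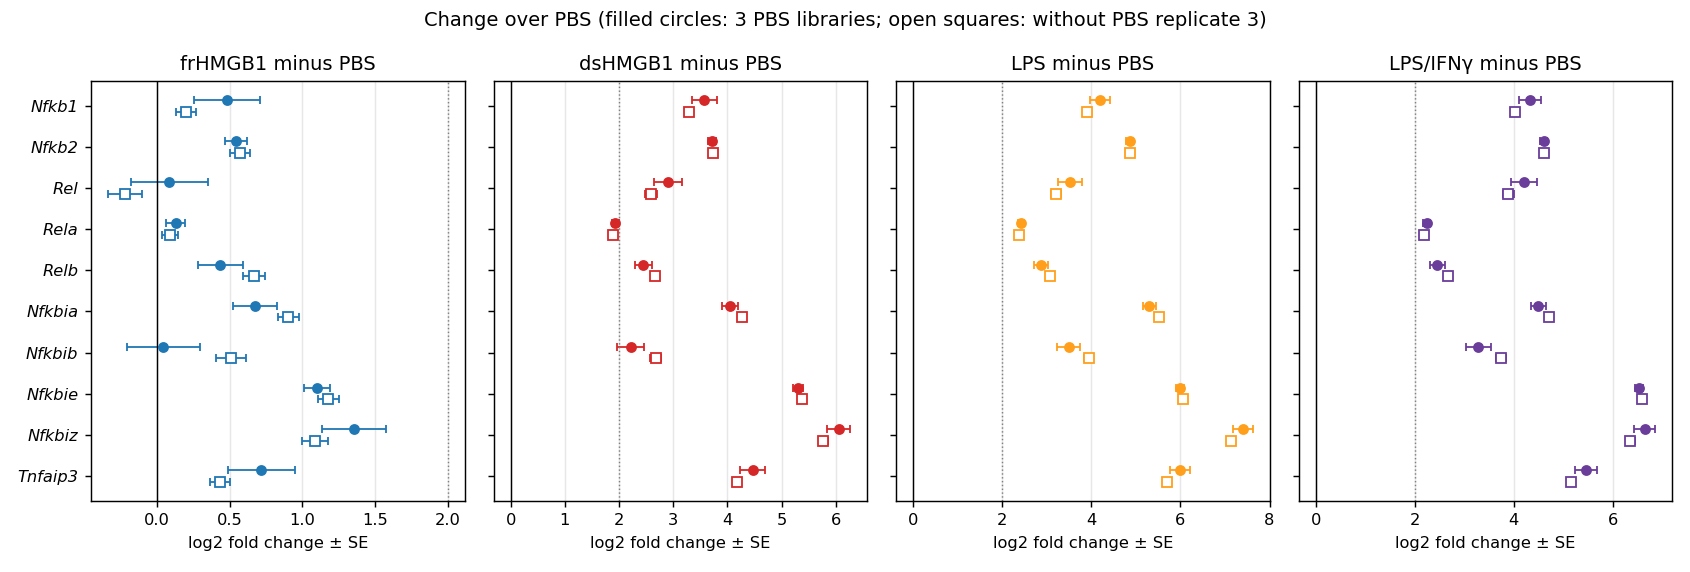
Log2 fold change over PBS with its standard error, with all PBS libraries (filled circles) and without PBS replicate 3 (open squares). The dotted line marks 2.

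Rela encodes p65, the subunit that carries most of the activating function of the classical pathway (ENSMUSG00000024927, chr19:5637483-5648130, + strand, GRCm38). Its normalized counts were 6290.2, 6113 and 5642 in PBS and 6842, 6438 and 6481 in frHMGB1. They reached 24245, 22002 and 22446 after dsHMGB1, 31474, 32894 and 32893 after LPS and 28134, 28537 and 28652 after LPS/IFNγ. The PBS and frHMGB1 libraries lay close together without overlap, and the 3 other conditions lay well above them, with LPS highest. After dsHMGB1, LPS and LPS/IFNγ, Rela changed least of the members: its log2 fold change over PBS was 1.93 after dsHMGB1 (adjusted p = 6.78e-10), 2.43 after LPS (5.56e-11) and 2.24 after LPS/IFNγ (9.23e-11), and it was not called after frHMGB1 (0.13, adjusted p = 0.429).

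Rel encodes c-Rel, an activating subunit found mostly in blood cells (ENSMUSG00000020275, chr11:23736847-23770970, - strand). Its normalized counts in PBS were 2057, 2339.7 and 926, and those in frHMGB1, 1978, 1874 and 1803, fell between the PBS libraries. Levels rose to 10871, 15654 and 13219.8 after dsHMGB1, 19528, 21746 and 19932 after LPS and 32245, 33358 and 32798 after LPS/IFNγ, so that LPS/IFNγ was highest and no library of these 3 conditions overlapped PBS. The log2 fold changes were 2.90, 3.52 and 4.21 (adjusted p = 1.59e-06, 2.00e-07 and 3.69e-08). The difference between frHMGB1 and PBS was not called and its sign rested on PBS replicate 3 (log2 0.09, adjusted p = 0.904, and without that library -0.22, adjusted p = 0.169).

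Relb encodes the activating subunit of the alternative pathway, which pairs mainly with p52 (ENSMUSG00000002983, chr7:19606217-19629438, - strand). PBS gave normalized counts of 1743, 1679.9 and 2589 and frHMGB1 2666, 2773 and 2682. dsHMGB1 gave 11878, 10120.2 and 10844, LPS 13711, 14443 and 15559 and LPS/IFNγ 11076, 10862 and 10922. LPS was highest, and the LPS/IFNγ libraries lay within the range of the dsHMGB1 libraries. Log2 fold changes over PBS were 2.45 after dsHMGB1, 2.86 after LPS and 2.45 after LPS/IFNγ (adjusted p = 3.02e-09, 4.96e-10 and 1.73e-09). frHMGB1 raised Relb by 0.44 on the log2 scale (adjusted p = 0.0361, and without PBS replicate 3 0.66, adjusted p = 2.73e-06). That call was lost without PBS replicate 1 (adjusted p = 0.107) or 2 (0.101), and without frHMGB1 replicate 1 (0.0824), 2 (0.115) or 3 (0.0865). Leaving out dsHMGB1 replicate 3, which is in neither condition but in the same fit, lost the call too (adjusted p = 0.0512). It was also lost with DESeq2 size factors in edgeR (adjusted p = 0.0875), without a filter (0.15), with at least 1 CPM in 3 libraries (0.103), with protein-coding genes only (0.382) and with only the 2 conditions compared (0.771).

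Nfkb1 encodes p105, which is processed to p50, the usual partner of p65, and which holds other subunits back while unprocessed (ENSMUSG00000028163, chr3:135584655-135691547, - strand). Its normalized counts were 5505, 5889.9 and 2670.2 in PBS and 6994, 6508 and 6129.9 in frHMGB1. After dsHMGB1 they were 53040.4, 56682 and 58117, after LPS 80422, 86788 and 88829.7 and after LPS/IFNγ 92245, 94779.5 and 94399. No condition overlapped another, and LPS/IFNγ stood highest. The log2 fold changes over PBS were 3.58, 4.19 and 4.32 (adjusted p = 5.21e-08, 9.15e-09 and 6.21e-09). For frHMGB1 the value was 0.48 (adjusted p = 0.31), and without PBS replicate 3 0.20 (adjusted p = 0.0444), a smaller difference that was called. A provisional gene model, Gm43430, overlaps Nfkb1 by 3897 bases on the same strand and had 724 counts over all libraries, against 705940 for Nfkb1.

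Nfkb2 encodes p100, the precursor of p52 and an inhibitor of Relb dimers until it is processed (ENSMUSG00000025225, chr19:46304320-46312385, + strand). The libraries held 3011, 3102 and 3209 normalized counts in PBS and 4589, 4727 and 4274 in frHMGB1. They held 43485, 38831 and 40201 after dsHMGB1, 85076, 90992 and 94793 after LPS and 74899, 74094 and 76778 after LPS/IFNγ. All conditions were separate, in the order PBS, frHMGB1, dsHMGB1, LPS/IFNγ, LPS. The log2 fold change was 0.54 after frHMGB1 (adjusted p = 0.000481), 3.72 after dsHMGB1 (1.45e-12), 4.86 after LPS (1.25e-13) and 4.599 after LPS/IFNγ (1.77e-13). With only the 2 conditions compared, Nfkb2 was not called after frHMGB1 (adjusted p = 0.118). Nfkb2, whose promoter window held 2 matches above, is overlapped on the opposite strand by Psd (299 bases, 32284 counts over all libraries) and by AC114539.1 (1292 bases, 8195 counts), against 591177 counts for Nfkb2. The libraries were made with a stranded kit, but the strand setting of the counting is not stated, so an antisense share of these counts could not be set apart.

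Nfkbia encodes IκBα, the inhibitor that is destroyed and made again fastest during activation (ENSMUSG00000021025, chr12:55489410-55492647, - strand). Normalized counts were 2242, 2267 and 3410.5 in PBS and 4168, 4282 and 4171 in frHMGB1, without overlap. Levels of 48411, 40606 and 42195 followed dsHMGB1, 100936, 103429 and 107735 LPS and 58509.9, 59613 and 59464 LPS/IFNγ. LPS was far above the other conditions. The log2 fold change over PBS was 0.67 after frHMGB1 (adjusted p = 0.00245), 4.05 after dsHMGB1 (4.24e-11), 5.30 after LPS (3.40e-12) and 4.49 after LPS/IFNγ (9.24e-12). The frHMGB1 call was lost with protein-coding genes only (adjusted p = 0.0748) and with only the 2 conditions compared (0.3).

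Nfkbib encodes IκBβ, a slower inhibitor of the same kind (ENSMUSG00000030595, chr7:28758251-28767512, - strand). In PBS its normalized counts were 1726, 1449.6 and 3392, so that replicate 3 exceeded every frHMGB1 library (2238, 2341 and 2185) while the other PBS libraries lay below them all. Levels rose to 11939, 8948 and 9652 after dsHMGB1, 23972, 24591 and 25053 after LPS and 21283, 20942 and 21586 after LPS/IFNγ, in separate ranges. The log2 fold changes were 2.22, 3.49 and 3.28 (adjusted p = 2.24e-06, 2.65e-08 and 3.82e-08). For frHMGB1 against PBS the value was 0.04 (adjusted p = 0.89). It was -0.09 without PBS replicate 1, -0.17 without PBS replicate 2, and 0.51 without PBS replicate 3, where it was called (adjusted p = 0.00137). Sirt2, a deacetylase gene on the opposite strand, overlaps Nfkbib by 778 bases and had 157442 counts over all libraries, against 167034 for Nfkbib, and an antisense share of the counts of Nfkbib could not be set apart.

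Nfkbie encodes IκBε, the inhibitor that is made late after activation (ENSMUSG00000023947, chr17:45555703-45563169, + strand). It had 431, 457 and 527 normalized counts in PBS and 1023, 1053 and 929.6 in frHMGB1. Values were 18262, 18226 and 18984 after dsHMGB1, 28595, 30227 and 30734 after LPS and 42708, 42328 and 44234 after LPS/IFNγ. All conditions were separate and LPS/IFNγ was highest. Nfkbie was raised by log2 1.10 after frHMGB1 (adjusted p = 2.93e-06), 5.30 after dsHMGB1 (1.47e-13), 5.99 after LPS (4.71e-14) and 6.52 after LPS/IFNγ (4.18e-14).

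Nfkbiz encodes IκBζ, a nuclear relative of the inhibitors that is induced during activation and helps p50 dimers to switch on secondary genes (ENSMUSG00000035356, chr16:55811375-55838899, - strand). PBS libraries held 380.2, 416 and 184 normalized counts and frHMGB1 libraries 817, 859.7 and 853. dsHMGB1 libraries held 20320.3, 23674 and 21573, LPS libraries 51967, 57323 and 58569.5 and LPS/IFNγ libraries 31569, 33208 and 33664. The conditions were separate, with LPS highest, and Nfkbiz had the largest change over PBS of all members in each of the 4 comparisons. The log2 fold change was 1.36 after frHMGB1 (adjusted p = 0.00197), 6.05 after dsHMGB1 (7.26e-10), 7.41 after LPS (1.01e-10) and 6.64 after LPS/IFNγ (1.97e-10). When only the 2 conditions were compared, the frHMGB1 call of Nfkbiz was lost (adjusted p = 0.13). The 4 fold changes without PBS replicate 3 were 1.09, 5.77, 7.13 and 6.35, and frHMGB1 then changed Nfkbie (1.18) more than Nfkbiz, as did LPS/IFNγ (6.59).

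Tnfaip3 encodes A20, an enzyme that edits ubiquitin chains upstream of the kinase complex and so ends the signal (ENSMUSG00000019850, chr10:19000910-19015657, - strand). Its normalized counts were 2011, 2026 and 926 in PBS and 2803, 2734 and 2637 in frHMGB1. After dsHMGB1 Tnfaip3 stood at 34176, 38325 and 37575, after LPS at 98116, 109230.3 and 108212 and after LPS/IFNγ at 70912, 74409.8 and 72745. No condition overlapped another. The log2 fold changes were 4.47, 5.99 and 5.46 (adjusted p = 9.56e-09, 5.97e-10 and 1.09e-09). frHMGB1 gave 0.72 (adjusted p = 0.0871), and without PBS replicate 3 0.44 (adjusted p = 0.000102). The difference was also called without PBS replicate 1 (0.89, adjusted p = 0.0478) or without PBS replicate 2 (0.90, adjusted p = 0.043), and with the DESeq2 Wald test (adjusted p = 0.0219).

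The frHMGB1 libraries all lay above all PBS libraries for 8 of the 10 members, the exceptions being Rel and Nfkbib, while this held for 9.72% of all genes. The 5 members called were Nfkb2, Relb, Nfkbia, Nfkbie and Nfkbiz, and without PBS replicate 3 Nfkb1, Nfkbib and Tnfaip3 joined them, leaving Rel and Rela uncalled. Between the HMGB1 forms, dsHMGB1 was higher than frHMGB1 for all 10 members, with 27.7% of all genes called higher and 23.1% lower. The log2 differences ran from 1.80 for Rela (adjusted p = 1.58e-09) to 4.70 for Nfkbiz (adjusted p = 5.25e-09), with a median of 3.13 beside 0.02 over all genes. Without PBS replicate 3 all 10 were called again (35.8% of all genes higher). By the study's methods, frHMGB1 was prepared in buffers with the reducing agent DTT, and dsHMGB1, a gift of another laboratory, without it. The parts of HMGB1 form and preparation in these differences cannot be told apart.

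dsHMGB1 left the members below LPS. Of the 10, 8 were called lower than in LPS and 0 higher, where 15.8% of all genes were called higher and 10.6% lower. The median log2 difference was -0.92, against 0.02 over all genes. The largest differences were those of Tnfaip3 (-1.52, adjusted p = 0.000393), Nfkbiz (-1.36, adjusted p = 0.000746) and the inhibitor genes Nfkbib (-1.27) and Nfkbia (-1.25). Nfkb1 (-0.61, adjusted p = 0.0878) and Rel (-0.62, adjusted p = 0.134) were not called, although none of their dsHMGB1 libraries reached an LPS library. Without PBS replicate 3 both were called (adjusted p = 1.25e-07 and 4.25e-05), so that all 10 members were lower (23.3% of all genes lower). That library is in neither condition but in the same fit, and the log2 differences hardly moved without it (-0.60 and -0.62). The PBS libraries are likewise outside the comparisons of LPS/IFNγ with dsHMGB1 and with LPS below. With only the 2 conditions compared both passed as well (7.26e-05 and 0.00212), and Nfkb1 passed with the DESeq2 Wald test (0.0287) and with DESeq2 size factors in edgeR (0.045). The smallest difference, that of Relb (-0.41, adjusted p = 0.0444), was no longer called without any single one of 8 libraries: frHMGB1 replicate 1 (adjusted p = 0.0604), 2 (0.0596) or 3 (0.0603), dsHMGB1 replicate 2 (0.148) or 3 (0.114), and LPS replicate 1 (0.0501), 2 (0.0676) or 3 (0.108). Nor was it called without a filter (0.0685), with at least 1 CPM in 3 libraries (0.053) or with protein-coding genes only (0.096).

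Against LPS/IFNγ, dsHMGB1 was lower for 8 members and higher for 0, where 16.5% of all genes were higher and 16.7% lower. The median log2 difference of the members was -0.81, beside 0.01 over all genes. Rel (-1.31, adjusted p = 0.00187) and Nfkbie (-1.22, adjusted p = 1.02e-07) differed most. Relb was not called (-0.00079, adjusted p = 0.948), with overlapping libraries. Nfkbiz was not called (-0.59, adjusted p = 0.0643) but passed without PBS replicate 2 (0.0415) or 3 (6.13e-07), the latter giving 9 members lower (25.4% of all genes lower). It also passed with the DESeq2 Wald test (0.0229), DESeq2 size factors in edgeR (0.0412), at least 1 CPM in 3 libraries (0.0446), protein-coding genes only (0.0393) and only the 2 conditions compared (0.0001). Calls of modest size also rested on single libraries. The difference of Nfkb1 (-0.75, adjusted p = 0.0227) was not called without dsHMGB1 replicate 1 (adjusted p = 0.083), 2 (0.059) or 3 (0.0572), nor without LPS/IFNγ replicate 1 (0.0579), 2 (0.0662) or 3 (0.0634). That of Rela (-0.31, adjusted p = 0.0143) was lost without dsHMGB1 replicate 2 (0.0598) or 3 (0.0593) or LPS/IFNγ replicate 1 (0.0518), 2 (0.0633) or 3 (0.0608), and without a filter (0.0544). That of Nfkbia (-0.44, adjusted p = 0.0155) was lost without dsHMGB1 replicate 2 (0.062) or 3 (0.0576) or LPS/IFNγ replicate 2 (0.0577) or 3 (0.0543). Without dsHMGB1 replicate 2 or 3, or without LPS/IFNγ replicate 2 or 3, the members called lower numbered 5.

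Members were called in both directions between LPS/IFNγ and LPS. Here 16.3% of all genes were called higher in LPS/IFNγ and 9.36% lower, and of the 10 members 1 was higher and 4 were lower. The members called higher were no more than the share of all genes, and the same held without PBS replicate 3 (2 of 10, against 25.1%). Nfkbie was higher (0.53, adjusted p = 0.000147). Nfkbia (-0.81, adjusted p = 0.000336), Nfkbiz (-0.77, adjusted p = 0.0261), Relb (-0.41, adjusted p = 0.0374) and Nfkb2 (-0.26, adjusted p = 0.0481) were lower. All LPS/IFNγ libraries of Rel exceeded all LPS libraries, yet the difference was not called (0.69, adjusted p = 0.0592). Rel passed without PBS replicate 2 (0.0377) or 3 (1.11e-05), and with all libraries under the DESeq2 Wald test (0.0372), at least 1 CPM in 3 libraries (0.0462), protein-coding genes only (0.0401) and only the 2 conditions compared (5.55e-12). Without PBS replicate 3, 2 members were higher (25.1% of all genes), Rel and Nfkbie, and 7 were lower (24.3%), among them Rela (-0.19, adjusted p = 0.002), Nfkbib (-0.21, adjusted p = 0.035) and Tnfaip3 (-0.53, adjusted p = 1.63e-07). Nfkb1 differed little in either case (0.14, adjusted p = 0.635, and 0.13, adjusted p = 0.0766). Because the LPS dose of LPS/IFNγ is uncertain, the parts of dose and IFNγ in these differences cannot be told apart.

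Of the calls between LPS/IFNγ and LPS, those of Nfkbie and Nfkbia held without any single library. The call for Nfkb2 was lost without any single one of 11 libraries: PBS replicate 1 (adjusted p = 0.058) or 2 (0.0523), frHMGB1 replicate 1 (0.0747), 2 (0.0663) or 3 (0.0607), dsHMGB1 replicate 2 (0.0596) or 3 (0.0695), LPS replicate 2 (0.0562) or 3 (0.0805), and LPS/IFNγ replicate 1 (0.0634) or 2 (0.0671). The call for Relb was lost without any single one of 8: frHMGB1 replicate 1 (0.0518), 2 (0.0507) or 3 (0.0516), dsHMGB1 replicate 3 (0.0509), LPS replicate 3 (0.0772), and LPS/IFNγ replicate 1 (0.0559), 2 (0.0619) or 3 (0.0621). The call for Nfkbiz was lost without LPS replicate 2 (0.0534) or 3 (0.0596) or LPS/IFNγ replicate 1 (0.066), 2 (0.0544) or 3 (0.0528). Nfkb2 was also not called without a filter (0.156) or with protein-coding genes only (0.105), nor was Relb in these settings (0.0669 and 0.097) or with at least 1 CPM in 3 libraries (0.0528). With only the 2 conditions compared Nfkb1 (adjusted p = 0.00199), Rela (5.37e-05), Nfkbib (2.74e-05) and Tnfaip3 (1.11e-10) passed too, and Rela passed with the DESeq2 Wald test (0.0173). The members called lower came to 1 without LPS replicate 3 or LPS/IFNγ replicate 1 or 2, and to 2 without any frHMGB1 library, dsHMGB1 replicate 3, LPS replicate 2 or LPS/IFNγ replicate 3.

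**Figure D4:**
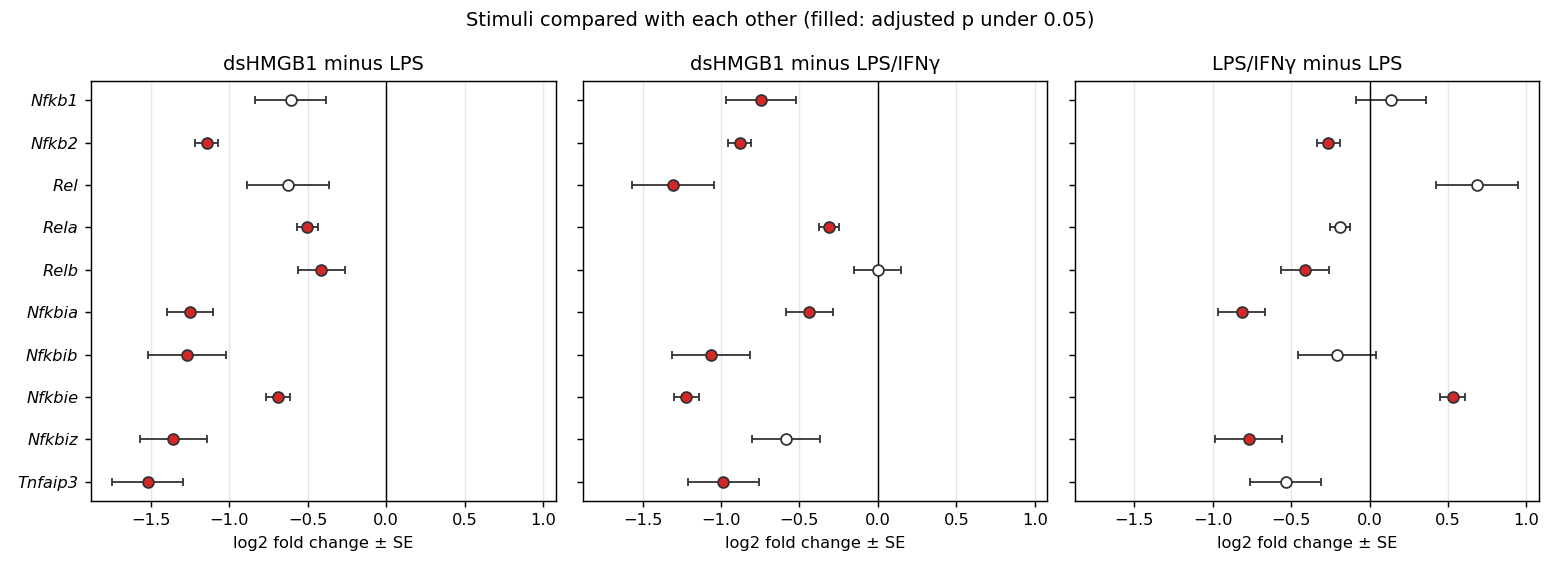
Log2 differences of the members between the stimuli, with standard errors. Filled points had an adjusted p under 0.05.

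To compare levels between genes, normalized counts were divided by summed exon length in kilobases. That length takes in every annotated exon of a gene (12061 bases for Nfkb1) and can exceed the length of the transcripts made. The order of genes, the shares and the ratios below depend on it, and other lengths were not tried. On this scale Rela was the most abundant subunit in PBS (mean 1958 per kilobase), ahead of Nfkb2 (678), Relb (516), Nfkb1 (389) and Rel (238). After LPS the order was Nfkb2 (19696), Rela (10554), Nfkb1 (7076), Relb (3751) and Rel (2733). Relb stood above Nfkb1 through PBS replicate 3 alone, as Nfkb1 exceeded Relb in the other PBS libraries (shares below). With these lengths, Rela thus went from first place to the second as the precursor gene Nfkb2 passed it. Per library, Rela made up 52.7, 51.01 and 51.8% of the summed subunit level in PBS and 46.8, 45.3 and 47.1% in frHMGB1, against 30.0, 28.6 and 28.7% after dsHMGB1, 24.6, 24.1 and 23.6% after LPS and 22.7, 22.9 and 22.7% after LPS/IFNγ. Nfkb2 made up 16.9, 17.4 and 19.7% in PBS, 21.03, 22.3 and 20.8% in frHMGB1, 36.1, 33.8 and 34.4% after dsHMGB1, 44.6, 44.7 and 45.5% after LPS and 40.5, 39.8 and 40.7% after LPS/IFNγ. Neither share overlapped between PBS and any other condition, and PBS replicate 3 stood with the other PBS libraries for Rela but not for Nfkb1 (6.24%, against 11.7% and 12.5%), Rel (3.49%, against 7.09% and 8.03%) or Relb (18.8%, against 11.6% and 11.1%).

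The summed level of the 3 cytoplasmic inhibitors over that of the 5 subunits was 0.600, 0.571 and 1.09 in PBS and 0.831, 0.882 and 0.871 in frHMGB1. It was 1.58, 1.41 and 1.45 after dsHMGB1, 2.00, 1.93 and 1.95 after LPS and 1.49, 1.49 and 1.49 after LPS/IFNγ. With these lengths, inhibitor transcripts thus outgrew subunit transcripts most after LPS. PBS replicate 3, alone among the PBS libraries, exceeded every frHMGB1 library. Nfkbia was the leading inhibitor in every library, from 54.9% of the inhibitors in PBS replicate 3 to 75.6% in LPS replicate 3. Nfkbie made up 6.07, 6.74 and 4.49% of them in PBS, 11.3, 11.6 and 11.4% after LPS and 23.3, 22.9 and 23.7% after LPS/IFNγ, where its share was highest. Nfkbib went the other way, from 34.2, 30.0 and 40.6% in PBS to 13.2, 11.7 and 12.1% after dsHMGB1.

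**Figure D5:**
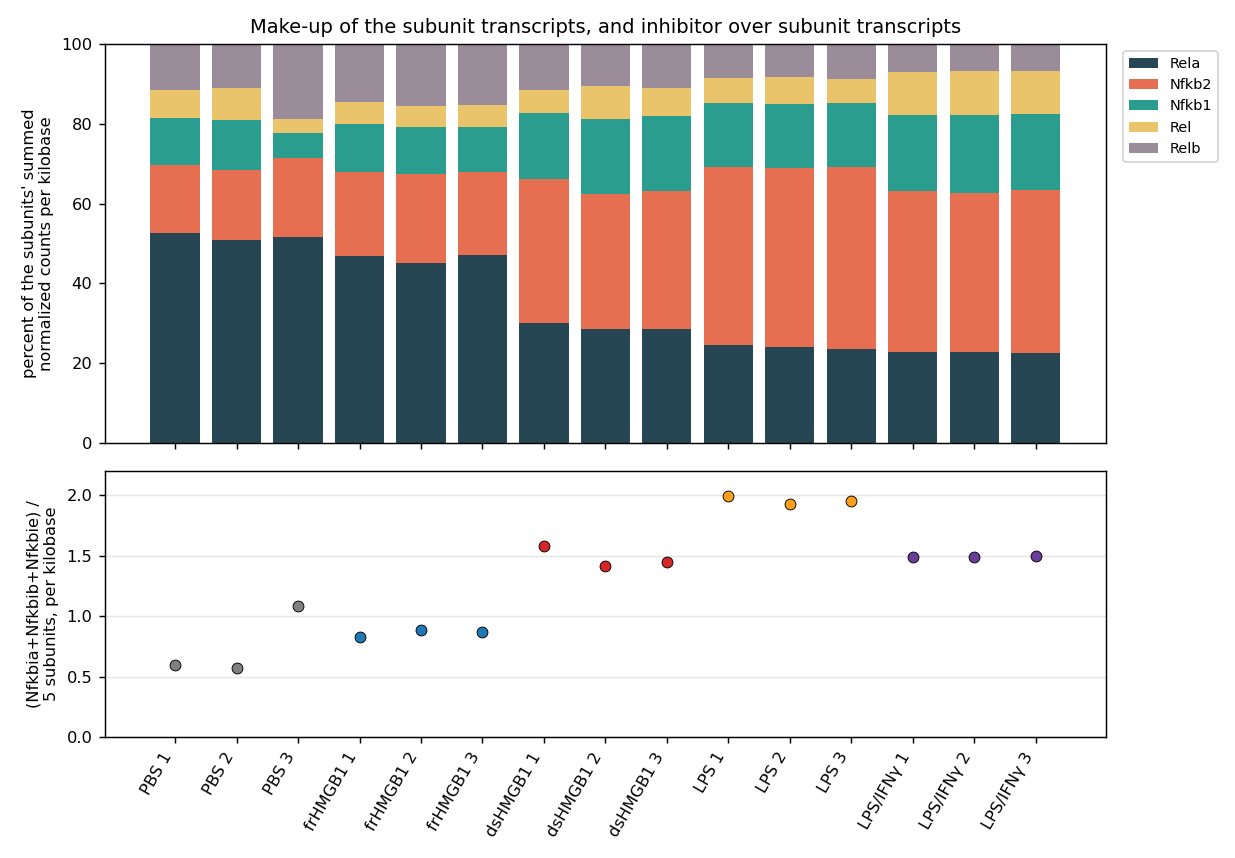
Share of each subunit gene in the summed subunit level per kilobase, by library, and the ratio of the summed inhibitors Nfkbia, Nfkbib and Nfkbie to the 5 subunits on the same scale.

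The genes whose profile over the 15 libraries was most like each member were ranked by Pearson's r of log2 normalized counts among 10092 genes with a mean of at least 100. All values lay at 0.995 to 0.999, and as the top 3 for each member they are high by selection and given as a description. Nfkb1 was closest to the adhesion gene Icam1, then Mllt6 and Ikzf1, and Nfkb2 to Lgals9, Socs3 and Traf1. Rel was closest to Etv6, Helz2 and Plek, Rela to Parp12, Tent4a and Rnf114, and Relb to Ube2l6, Dusp2 and Tnf. Among the inhibitors, Nfkbia was closest to Stard3, Stx6 and Tnf, Nfkbib to Znrf1, Gadd45b and Tagln2, and Nfkbie to Slc11a2, Cd40 and Mndal. Nfkbiz was closest to Cx3cl1, Irf5 and Pde4b, and Tnfaip3 to Tnfsf15, Rhbdf2 and Cmtm6.

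Upstream of the members, 12 genes for kinases and their adaptors were listed, and all passed the filter. Against PBS, 7 were called higher and 2 lower after dsHMGB1, 7 and 2 after LPS, 9 and 1 after LPS/IFNγ, and 1 and 0 after frHMGB1. Their median log2 fold changes were 0.90, 1.22, 1.17 and 0.10 in that order, beside the medians over all genes given above, where 23.3% of all genes were higher and 24.2% lower after dsHMGB1, 26.7% and 36.2% after LPS, 29.0% and 31.2% after LPS/IFNγ, and 1.31% and 5.69% after frHMGB1. Tank, an adaptor of the IKK-related kinases, had normalized counts of 1457, 1652 and 700.4 in PBS and 18266, 18409.6 and 18690.00 after LPS/IFNγ, without overlap (log2 3.86, adjusted p = 2.28e-08). Ikbke, the gene of such a kinase, was the gene called after frHMGB1 (0.49, adjusted p = 0.00388), and rose by 2.31 after dsHMGB1. Map3k8, which encodes the kinase Tpl2 held by p105, rose by 2.06, 3.17 and 2.82 after dsHMGB1, LPS and LPS/IFNγ, and Tab2, an adaptor of the kinase TAK1, by 1.81, 2.46 and 2.92. Tab1, another adaptor of TAK1, was lower in all 3 (-0.997, -1.05 and -1.47). Leaving PBS replicate 3 out gave counts of 8 and 2 after dsHMGB1, 7 and 3 after LPS, 9 and 1 after LPS/IFNγ, and 2 and 0 after frHMGB1, with medians of 0.79, 1.12, 0.89 and 0.03. The shares of all genes were then 29.8% higher and 29.0% lower, 32.9% and 38.3%, 33.3% and 34.4%, and 8.41% and 9.09%.

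Map3k14 encodes NIK, the kinase that starts the processing of p100 in the alternative pathway. Its normalized counts were 826, 878 and 581 in PBS, 478, 567 and 673 after dsHMGB1, 346, 369 and 363 after LPS and 1400.2, 1376 and 1309 after LPS/IFNγ. It was thus lowest in LPS and highest in LPS/IFNγ, and of these conditions only dsHMGB1 overlapped PBS, through PBS replicate 3 alone. Its log2 fold change over PBS was -0.42 after dsHMGB1 (adjusted p = 0.0465), -1.09 after LPS (5.00e-05) and 0.83 after LPS/IFNγ (0.00086), and LPS/IFNγ exceeded LPS by 1.92 (2.67e-06). Without PBS replicate 3 the value after dsHMGB1 was -0.58 (adjusted p = 6.67e-05). The substrate gene Nfkb2 had its highest level in LPS.

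Among 21 genes of ubiquitin regulators, 13 were higher and 3 lower than PBS after dsHMGB1, 14 and 2 after LPS, 15 and 3 after LPS/IFNγ, and 2 and 0 after frHMGB1, with medians of 0.86, 0.98, 0.95 and 0.07. Over all genes the shares higher and lower were 23.3% and 24.2% after dsHMGB1, 26.7% and 36.2% after LPS, 29.0% and 31.2% after LPS/IFNγ, and 1.31% and 5.69% after frHMGB1. The counts without PBS replicate 3 were 15 and 3, 15 and 3, 15 and 3, and 6 and 1 (all genes 29.8% and 29.0%, 32.9% and 38.3%, 33.3% and 34.4%, and 8.41% and 9.09%), with medians of 0.63, 0.87, 0.78 and 0.10. Traf1, a receptor adaptor, rose most: its normalized counts were 174, 188 and 205 in PBS, 12034, 10277 and 11415 after dsHMGB1 and 25593, 26155 and 26867 after LPS (log2 5.90 and 7.13). Birc3, the gene of the ubiquitin ligase cIAP2, rose by 2.77, 3.13 and 3.09 after dsHMGB1, LPS and LPS/IFNγ, and Rnf31, the catalytic part of the linear ubiquitin ligase, by 2.66, 3.17 and 2.72. Tnip3, a partner of A20, rose by 2.58, 3.52 and 4.44, and was 1 of the 2 genes called after frHMGB1 (0.79, adjusted p = 5.74e-05), the other being Traf1 (0.83, adjusted p = 7.47e-05). Tnip2 fell by 0.25 after dsHMGB1 (by 0.15 without PBS replicate 3) but rose by 0.78 after LPS and 1.02 after LPS/IFNγ.

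Otulin, whose enzyme removes linear ubiquitin chains, had 3409.6, 3541 and 10303 normalized counts in PBS, where replicate 3 was far above the others. Its log2 fold change over PBS was -1.16, -1.11 and -1.68 after dsHMGB1, LPS and LPS/IFNγ, and -0.44, -0.39 and -0.97 without that library, called lower in each case. Otud7b, whose enzyme removes chains that mark TRAF3 for decay, fell by 0.61 after dsHMGB1 and rose by 0.85 after LPS/IFNγ. Without PBS replicate 3 Otud7b changed by -0.77 after dsHMGB1 and was called lower after LPS (-0.34, adjusted p = 5.23e-05). Btrc, part of the ligase that marks IκBα for decay, was lower after LPS (-0.44, adjusted p = 0.00129) and LPS/IFNγ (-1.42, adjusted p = 8.44e-08). Traf5, a receptor adaptor, was lower after LPS/IFNγ (-1.49, adjusted p = 2.07e-05), with normalized counts of 430.4, 429 and 428 against 897, 942 and 1795 in PBS. Without PBS replicate 3, Traf5 was still lower after LPS/IFNγ (-1.11, adjusted p = 1.32e-08) and was called higher after dsHMGB1 (0.51, adjusted p = 0.000547).

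The list of other nuclear cofactors held 5 genes, of which 1 was higher and 1 lower after dsHMGB1, 3 and 1 after LPS, 2 and 2 after LPS/IFNγ, and 1 and 0 after frHMGB1, with medians of 0.05, 0.88, 0.45 and 0.06. With so few genes, 1 of 5 in each direction after dsHMGB1 is no more than the share of all genes (23.3% higher and 24.2% lower). Of all genes 26.7% were higher and 36.2% lower after LPS, 29.0% and 31.2% after LPS/IFNγ, and 1.31% and 5.69% after frHMGB1. The 2 of 5 in each direction after LPS/IFNγ are thus little above the shares of all genes. When PBS replicate 3 was left out, the counts were 2 and 1, 3 and 1, 3 and 1, and 2 and 0, and the medians 0.17, 1.00, 0.87 and 0.19. The shares of all genes were then 29.8% higher and 29.0% lower, 32.9% and 38.3%, 33.3% and 34.4%, and 8.41% and 9.09%. Bcl3, a nuclear partner of p50 and p52, had normalized counts of 956, 836 and 1211 in PBS, 1356, 1303 and 1365 in frHMGB1, 5372, 4749.8 and 5030.4 after dsHMGB1, 12266, 12099 and 12828 after LPS and 14201, 13358 and 14262 after LPS/IFNγ, in separate ranges. It was called higher in each, from 0.43 after frHMGB1 (adjusted p = 0.0145) to 3.80 after LPS/IFNγ (6.33e-12). Nfkbid, which encodes another nuclear relative of the inhibitors, was higher after LPS (1.24, adjusted p = 0.000168), and without PBS replicate 3 also after dsHMGB1 (0.73, adjusted p = 8.40e-07), LPS/IFNγ (0.87, adjusted p = 7.78e-08) and frHMGB1 (0.58, adjusted p = 8.31e-05). Akirin2, a partner of chromatin remodelers at cytokine genes, was not called after dsHMGB1 (0.05, adjusted p = 0.758) and higher after LPS (0.88) and LPS/IFNγ (1.33). Pdlim2, whose product ends p65 activity in the nucleus, was lower after dsHMGB1, LPS and LPS/IFNγ (-1.39, -1.38 and -2.28). Without PBS replicate 3 the values of Pdlim2 were -0.99 after dsHMGB1 and -0.98 after LPS, called lower in both. Commd1, which helps to clear p65 from chromatin, was called lower after LPS/IFNγ (-1.24, adjusted p = 0.0233), but PBS replicate 3 held 2610.3 normalized counts of it, and without that library the value was -0.14 (adjusted p = 0.174).

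Of 26 NF-kB target genes, all 26 were called higher than PBS after dsHMGB1 and all 26 after LPS, 25 were higher and 1 lower after LPS/IFNγ, and 6 were higher and 0 lower after frHMGB1 (12 and 1 without PBS replicate 3). Of all genes, 23.3% were higher after dsHMGB1, 26.7% after LPS, 29.0% after LPS/IFNγ and 1.31% after frHMGB1 (8.41% without PBS replicate 3). The median log2 fold change of the target genes was 7.70, 10.04, 7.89 and 0.33 in the order dsHMGB1, LPS, LPS/IFNγ and frHMGB1, and 0.53 after frHMGB1 without PBS replicate 3. For 3 of them, Il23a, Csf2 and Csf3, PBS had 0 counts. These 3 passed the filter only through the stimulated conditions where they were high, and they could not be called lower than PBS. Their calls thus add no support to the counts of target genes called higher. Il12b and Il6, given below, were near 0 in PBS too. With Il23a, Csf2 and Csf3 set to lower bounds against 3 counts over the PBS group, the medians were 7.30, 9.62 and 7.29. Il23a, a cytokine subunit, had normalized counts of 292, 202 and 175 after dsHMGB1, 3726, 3719 and 4259 after LPS and 50.9, 48.4 and 52.1 after LPS/IFNγ, which is at least 296-fold, 5181-fold and 67.0-fold over PBS. Il12b, a subunit shared by interleukins, was at 3.23, 0 and 0 in PBS and at 32201, 37678 and 35937 after dsHMGB1, 73655, 79751 and 78206 after LPS and 228523, 211733 and 216275 after LPS/IFNγ. Il6, a cytokine gene, was at 1.29, 0 and 9.39 in PBS and at 6009, 4274 and 3721, 53199, 50308 and 49119 and 23027, 22893 and 23114 in the same order. Nos2, which encodes inducible nitric oxide synthase, was at 9.70, 5.68 and 11.7 in PBS and at 14931, 14509.8 and 14836, 86227, 92258 and 97716 and 226893, 231857 and 229447. Il23a and Il6 were thus highest in LPS, and Il12b and Nos2 in LPS/IFNγ.

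At the other end of the list stood the survival gene Bcl2l1 (1.06, 1.39 and 2.03 after dsHMGB1, LPS and LPS/IFNγ), the stress gene Ier3 (2.97, 4.63 and 2.87) and Sod2, the mitochondrial superoxide dismutase gene (3.75, 4.28 and 4.37). Tnfrsf1b, which encodes a TNF receptor, was the target gene called lower. Its normalized counts were 55502, 54428 and 47289 in PBS, 186917, 182520.3 and 189588 after dsHMGB1, 217817, 230201 and 239481 after LPS and 42689.7, 44661 and 44081 after LPS/IFNγ, so that it was raised by dsHMGB1 and LPS (log2 1.83 and 2.13) and lay below PBS after LPS/IFNγ (-0.26, adjusted p = 0.0156).

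The labelled cell type was checked against markers. All 8 macrophage markers passed the filter, with Lyz2 the most abundant, and their summed normalized counts were 1113958, 1069915 and 1168723 in PBS, 1222681, 1190534 and 1192366 in frHMGB1, 1233079, 1146057 and 1202706 after dsHMGB1, 1195445, 1197140.4 and 1255416 after LPS and 1007451, 986036 and 1017982 after LPS/IFNγ. Lyz2 made up most of these sums (819292, 778309 and 960055 in PBS), and single markers changed: 3 were called higher and 0 lower than PBS after dsHMGB1, 4 and 1 after LPS, 4 and 2 after LPS/IFNγ, and 0 and 0 after frHMGB1 (4 and 1, 4 and 1, 5 and 2, and 3 and 0 without PBS replicate 3). Of all genes 23.3% were higher and 24.2% lower after dsHMGB1, 26.7% and 36.2% after LPS, 29.0% and 31.2% after LPS/IFNγ, and 1.31% and 5.69% after frHMGB1. Without PBS replicate 3 these shares were 29.8% and 29.0%, 32.9% and 38.3%, 33.3% and 34.4%, and 8.41% and 9.09%. Cd14 changed most after dsHMGB1 (2.72) and LPS (3.10), and Mertk after LPS/IFNγ (3.03). Of 7 neutrophil markers 1 passed, 3 were at 0 in every library (Ly6g, Mpo and Retnlg), Camp was the most abundant, and the sums were 9.05, 0 and 4.69, 4.28, 6.13 and 12.9, 42.7, 22.7 and 32.8, 31.0, 20.9 and 5.88 and 6.36, 10.5 and 3.65 in the same order of conditions. Camp was called higher than PBS after dsHMGB1 (4.03, adjusted p = 0.00508) and LPS (3.07, adjusted p = 0.0244). Of 6 lymphocyte markers 1 passed, 3 were at 0 (Cd3e, Cd3d and Ncr1), and Klrb1c led, with sums of 10.3, 20.8 and 22.3, 14.97, 5.11 and 7.55, 22.2, 15.4 and 26.1, 5.17, 7.47 and 2.94 and 10.6, 12.6 and 12.8. No sum of either list exceeded 42.7 in any library.

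Some markers of fibroblasts and dendritic cells were called against PBS too. The part of any marked cell type in the members' changes was not tested. Of all genes, 23.3% were called higher and 24.2% lower after dsHMGB1, and 26.7% and 36.2% after LPS. The shares were 29.0% and 31.2% after LPS/IFNγ, and 1.31% and 5.69% after frHMGB1. Without PBS replicate 3 they were 29.8% and 29.0%, 32.9% and 38.3%, 33.3% and 34.4%, and 8.41% and 9.09% in that order. The 1 of 5 fibroblast markers higher after dsHMGB1, given below, is no more than the share of all genes. All 5 fibroblast markers passed, led by Col1a1, with summed normalized counts of 11223, 11954 and 6306 in PBS, 10991, 10731 and 10926 in frHMGB1, 11091, 12186 and 13907 after dsHMGB1, 15210.4, 16124 and 16208 after LPS and 16216, 16157 and 16269 after LPS/IFNγ, and of the 5, 1 was called higher than PBS after dsHMGB1, 4 after LPS, 4 after LPS/IFNγ and 0 after frHMGB1, with 0 lower (without PBS replicate 3 the same counts higher, and 1 lower after LPS/IFNγ and 1 after frHMGB1). Of 4 dendritic cell markers 2 passed (Zbtb46 and Xcr1), Flt3 and Siglech had 6 and 2 counts over all libraries, Xcr1 led, and the sums were 70.5, 68.1 and 148, 47.1, 41.9 and 57.2, 239, 181 and 210.2, 607, 571 and 629 and 991, 949 and 1048. Both passing markers were called higher than PBS after LPS and LPS/IFNγ, and Zbtb46 after dsHMGB1 as well. Xcr1, with 45.9, 52.4 and 145 normalized counts in PBS, was not called after dsHMGB1 (0.77, adjusted p = 0.068) and lower after frHMGB1 (-1.45, adjusted p = 0.0373). In the absence of PBS replicate 3, Xcr1 was called after dsHMGB1 (1.47, adjusted p = 1.91e-05) and not after frHMGB1 (-0.75, adjusted p = 0.0579).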

How the data were processed

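Polyadenylated RNA of 15 libraries, 3 for each of 5 conditions, had been sequenced by the authors from stranded mRNA libraries, demultiplexed with CASAVA and mapped to GRCm38 with STAR. The authors deposited raw counts per gene for 51763 Ensembl identifiers; neither the counting program, its annotation nor its strand setting is stated in the sources used here. Library totals ran from 40934540 to 80925478 counts. PCR duplicates could not be seen, and replicate pairs differed by a chi-square per degree of freedom of 3.70 to 573, so no library was a copy of another of its condition.

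Symbols and exon lengths came from GENCODE M21 (51661 identifiers matched, 102 did not). The fit used edgeR 4.0.16 (TMM, quasi-likelihood test, 1 factor for condition) in R 4.3.3 on the 16919 genes kept by filterByExpr (minimum count 10, minimum total 15), with Benjamini-Hochberg adjustment over all of them in each of 8 comparisons and a threshold of 0.05. Levels and log2 fold changes came from DESeq2 1.42.0, whose size factors shifted the median log2 fold change by at most 0.06 from TMM. The scripts were tested on simulated data with known changes.

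The members and the gene lists were chosen with earlier results of these data known. By rule the text names all 10 members, called genes of each list of regulators that ranked in the top 3 upward or the top 3 downward after dsHMGB1, LPS or LPS/IFNγ, the 3 target genes with the largest and the 3 with the smallest change, and the 3 genes most like each member. Csf2, Csf3, Fbxw11, Zbtb46 and the other markers were named after their values were seen. Promoters came from RefSeq (GRCm38.p6). The alternatives were the DESeq2 Wald test, DESeq2 size factors in edgeR, other filters on low counts, protein-coding genes only, only the 2 conditions compared, a block for replicate number, and leaving out each library. The edgeR log2 fold change with TMM was added after seeing the data.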

Additional observations from a re-analysis of the deposited data

How the results depend on the processing

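The spread measured here is that of cultures from a single pool of cells, so no result carries over to other animals by its p-value. PBS replicate 3 differs from the other controls with transcript length, and 3 libraries a condition leave each comparison with PBS resting on it or on the 2 others. Between dsHMGB1, LPS and LPS/IFNγ, calls with an adjusted p from 0.01 to 0.05 were those of Relb (LPS against dsHMGB1 and LPS/IFNγ), Nfkb2 and Nfkbiz (LPS/IFNγ against LPS), and Nfkb1, Rela and Nfkbia (dsHMGB1 against LPS/IFNγ). An antisense share of Nfkbib and Nfkb2 could not be set apart, and RNA gives no measure of protein or of nuclear entry.

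In every setting all 10 members were higher than PBS after dsHMGB1, LPS and LPS/IFNγ and higher in dsHMGB1 than in frHMGB1. DESeq2 size factors in edgeR moved no count by more than 1.5 times. With the DESeq2 Wald test, 434 genes were higher after frHMGB1 and 2 members were higher in LPS/IFNγ than in LPS. Without a filter on low counts, 96 genes were higher after frHMGB1 and 2 members lower in LPS/IFNγ than in LPS. With at least 1 CPM in 3 libraries, 547 genes were lower after frHMGB1 and 2 members higher in LPS/IFNγ than in LPS. With protein-coding genes only, frHMGB1 gave 3 members and 41 genes higher and 29 genes lower, Nfkbib changed sign between frHMGB1 and PBS (-0.0450), and 2 members were higher and 2 lower in LPS/IFNγ than in LPS. The cause of these shifts was not tested.

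With only the 2 conditions compared, the spread was estimated from those libraries alone. frHMGB1 against PBS then gave 1 member and 7 genes higher and 182 genes lower, dsHMGB1 against PBS 2493 genes higher and 2254 lower, and LPS against PBS 3685 genes lower. Among the comparisons without PBS, dsHMGB1 against LPS had 3224 genes lower, dsHMGB1 against LPS/IFNγ 4296 higher and 4284 lower, and LPS/IFNγ against LPS 3 members and 4564 genes higher and 7 members and 4435 genes lower. The difference of Relb between dsHMGB1 and LPS/IFNγ, near 0 in all settings, changed sign (0.0154), as it did with the edgeR log2 fold change, a setting chosen after seeing the data (0.0157).

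Leaving out each library in turn, members called higher after frHMGB1 ranged from 4 to 8, and genes from 114 to 1459 higher and from 704 to 1576 lower. Between dsHMGB1 and LPS, members lower ranged from 7 to 10, with 1944 to 4433 genes higher and 1306 to 4032 lower. Between dsHMGB1 and LPS/IFNγ, members lower ranged from 5 to 9, with 2266 to 4840 genes higher and 2268 to 4398 lower. Between LPS/IFNγ and LPS, members higher ranged from 1 to 2 and lower from 1 to 7, with 1990 to 4353 genes higher and 1301 to 4213 lower. The log2 difference after frHMGB1 ranged from -0.17 to 0.51 for Nfkbib and from -0.22 to 0.34 for Rel, and that of Relb between dsHMGB1 and LPS/IFNγ from -0.0620 to 0.0532.

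The labels number the replicates but do not say whether libraries of the same number belong together, and they were treated as unpaired. Of 30 such pairs between conditions, 1 had a correlation above 0.1 (range -0.34 to 0.34). These correlations are of deviations from a condition's mean, which in PBS and dsHMGB1 followed transcript length, so they cannot settle it. With the replicate number as a block no count moved by more than 1.5 times, and Relb between dsHMGB1 and LPS (adjusted p = 0.0534) and Nfkb2 between LPS/IFNγ and LPS (adjusted p = 0.0794) were no longer called.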

Other observations

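The ligase that marks IκBα for decay has a pair of alternative F-box subunits, Btrc and Fbxw11, which were called in opposite directions after LPS and LPS/IFNγ. Btrc had normalized counts of 694, 680.02 and 804 in PBS and 236, 265 and 309.7 after LPS/IFNγ. Fbxw11 had 4361, 4462 and 1806 in PBS, 10757, 11957 and 11465 after dsHMGB1, 15908, 17696 and 17419 after LPS and 24493, 24989.5 and 25230.3 after LPS/IFNγ, each of these 3 above all PBS libraries. Its log2 fold change over PBS was 1.68, 2.26 and 2.81 (adjusted p = 0.000138, 8.08e-06 and 9.02e-07), and 1.37, 1.94 and 2.49 without PBS replicate 3.

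Zbtb46, a transcription factor gene used as a marker of classical dendritic cells, had normalized counts of 24.6, 15.8 and 2.35 in PBS, 16.0, 12.3 and 28.0 in frHMGB1, 57.8, 85.1 and 77.3 after dsHMGB1, 185, 215 and 184 after LPS and 473, 503 and 567 after LPS/IFNγ. It rose in the order of the last 3 conditions, which did not overlap (log2 over PBS 2.27, 3.68 and 5.08). Tnf, among the genes most like Relb and Nfkbia, had 658, 623 and 840.00 in PBS, 1917, 2036 and 1832 in frHMGB1, 182841, 164552 and 168674 after dsHMGB1, 478677, 514662 and 512325 after LPS and 250967, 260280.1 and 261972 after LPS/IFNγ, and was called higher than PBS after frHMGB1 as well (1.46, adjusted p = 8.03e-07).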
